A study of Mus musculus with 2 samples.

Results

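The genes examined here encode the nuclear subunits of the mitochondrial respiratory chain and ATP synthase, taken from the arrays by gene symbol (Ndufa, Ndufb, Ndufc, Ndufs or Ndufv with a number, Sdha to Sdhd, and symbols that begin with Uqcr, Cox4 to Cox8 or Atp5). Of 37006 genes on the array, 85 had such a symbol, and they were covered by 131 probes in 140 spots. By their names, 37 belonged to complex I, 4 to complex II, 8 to complex III, 18 to complex IV and 18 to complex V. Female C57BL/6 mice gave the submandibular glands, from which epithelial cells were taken with EpCAM beads, and their RNA was labelled with Cy3 and hybridized to Agilent mouse arrays on the same slide. There was 1 array for mice aged 9 weeks (young) and 1 array for mice aged 24 months (aged), so no difference below has a replicate check and no p-value is given. No allele or agent was given to either group. By the methods of the study, the young mice came from a supplier and the aged mice from an institute's own facility, so that source and age cannot be told apart, and how many mice went into each array is not given in the sources used here.

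In the inner membrane of mitochondria, complex I (NADH dehydrogenase) and complex II (succinate dehydrogenase) pass electrons through coenzyme Q to complex III and through cytochrome c to complex IV (cytochrome c oxidase), which reduces oxygen. The proton gradient built on the way drives complex V, the ATP synthase. Most subunits are encoded in the nucleus and a small set in mitochondrial DNA, and the complexes hold core subunits, which carry the catalytic or cofactor sites, and accessory subunits around them. The ducts of salivary glands are rich in mitochondria, since they reabsorb salt against a gradient. Several subunits of complex IV exist as an isoform found in most tissues and another found mainly in heart, muscle, lung or testis.

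The probes of the isoform genes that stood apart, and those of Atp5g1, whose probes disagreed, are shown because each value below is the signal of such a sequence of 60 bases. They are written 5′ to 3′ as in the scanner files, with positions on mm9 (NCBI37).
Cox6a2, chr7:135349160-135349219, minus strand: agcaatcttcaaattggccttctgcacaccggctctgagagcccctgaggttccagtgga
Cox8b, chr7:148084852-148084911, minus strand: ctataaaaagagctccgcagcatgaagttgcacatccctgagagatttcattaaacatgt
Cox7a1, chr7:30970337-30970948, plus strand: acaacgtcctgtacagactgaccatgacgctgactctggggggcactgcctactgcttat
Atp5g1, chr11:95934315-95934374, minus strand, the brightest probe: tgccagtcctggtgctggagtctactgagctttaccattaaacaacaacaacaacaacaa
Atp5g1, chr11:95930317-95930376, minus strand, the probe that differed: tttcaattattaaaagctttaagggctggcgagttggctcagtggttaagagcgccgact
The Cox7a1 probe covers 612 bases of the genome with 60 bases of sequence and so joins separate stretches of it, and the others lie in 1 stretch each. Whether a probe lies in a coding or a non-coding exon is not stated in the files.

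Signals are the processed intensities of the scanner software, in arbitrary units. Differences are log2, aged minus young, after each signal was divided by the 75th percentile of the transcript probes measured with it, equal to 256 for young and 198 for aged. This scaling adds 0.37 to every log2 difference of the unscaled signals. Probes that the software marked as well above background for young, aged or both were kept, and a gene was represented by its brightest kept probe. Of the 85 genes, 83 were kept and all 83 were well above background on both arrays. Cox8c, the testis form of subunit 8, and Ndufa4l2, a relative of Ndufa4, did not pass the background mark at either age. The error given with a difference is that of the scanner software for the 2 spots, with a median of 0.20 over the 83 genes. It does not include the spread between mice. The 10 spots of Atp5g2 differed between the arrays by 0.57 ± 0.039 (SD over spots).

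Nearly all of the respiratory chain genes had a higher scaled signal on the aged array. The difference was above 0 for 81 of the 83 genes, beside 59.9% of the 18744 genes measured on both arrays. Only Cox7a1 and Cox7b2 lay below 0 (40.1% of all genes did). The median was 0.40, with an interquartile range from 0.30 to 0.50, while the median of all genes was 0.09. The differences were small and close together, with 67 of the 83 genes between 0.2 and 0.6, while the interquartile range of all genes ran from -0.17 to 0.34. Although 72 of the 83 exceeded their own error, that error leaves out the choice of scaling, and the scaling used here adds 0.37 to each log2 difference. The interquartile range was 0.20 wide for the respiratory chain genes and 0.51 for all genes. Only Cox6a2 and Cox8b differed by at least 2-fold upwards (1.52% of all genes did), and none did downwards (3.05% of all genes). At 1.5-fold, 6 genes were higher (9.82% of all genes) and none lower (7.42%). The 6 were Cox6a2, Cox8b, Atp5g1, Uqcrq, Ndufa2 and Ndufa11.

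**Figure D1:**
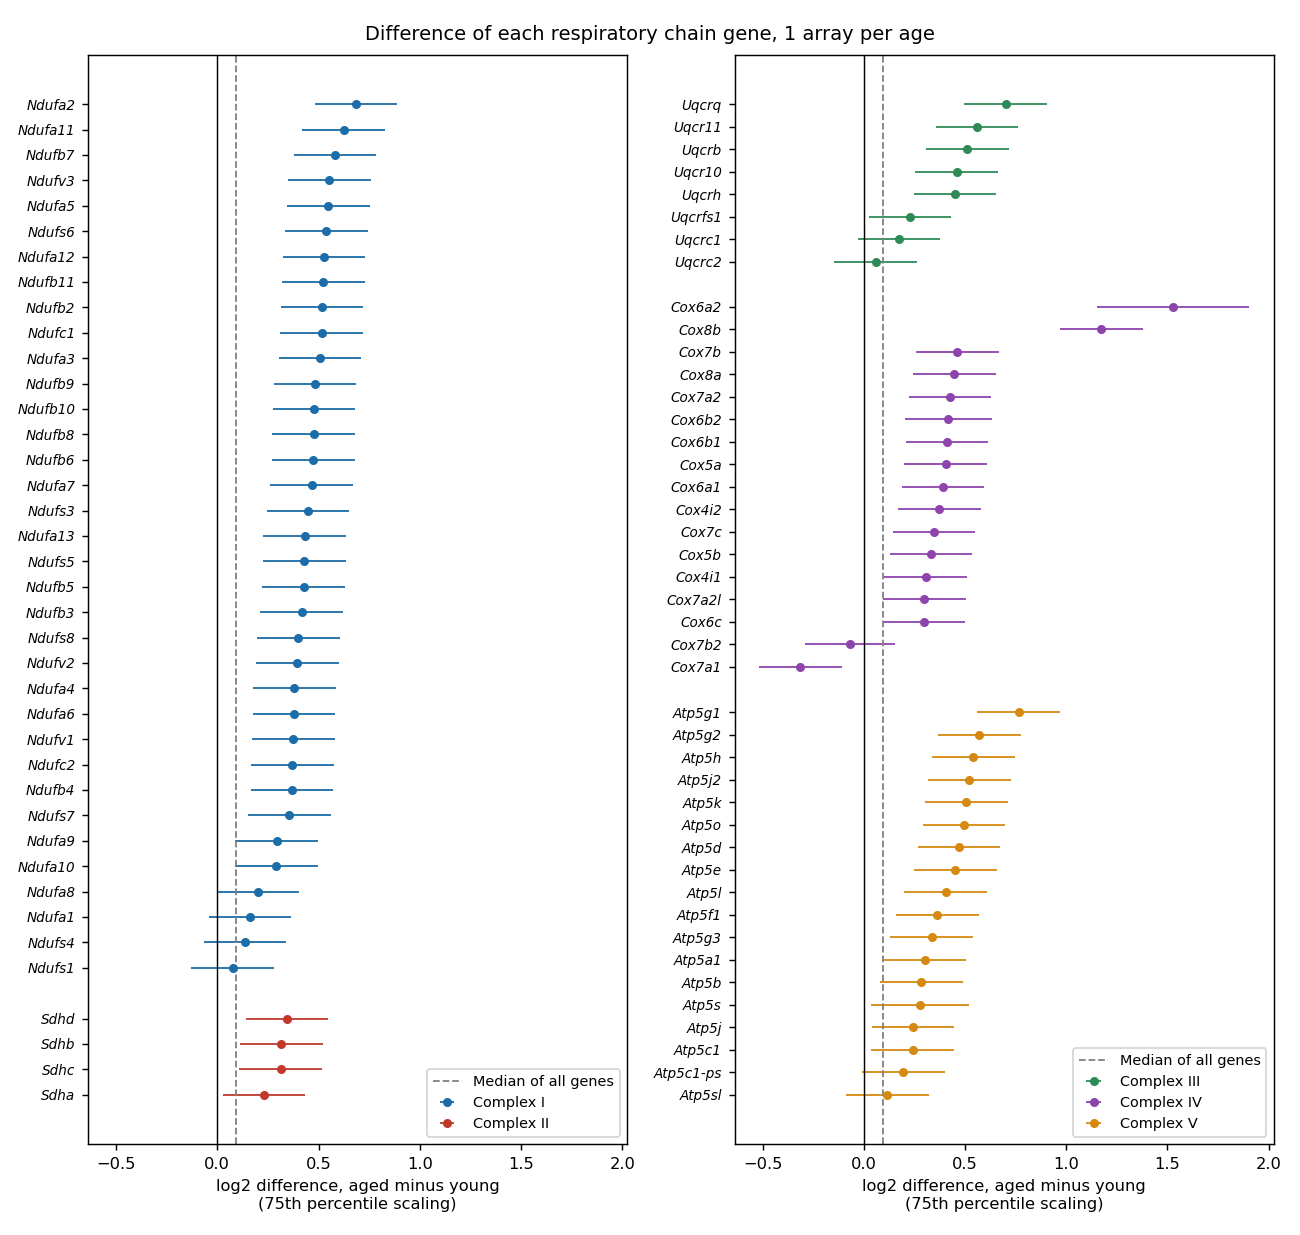
Each point is the log2 difference, aged minus young, of 1 gene (82 of the 83 are drawn) after 75th percentile scaling, grouped by complex, and each bar is the error of the scanner software. Except for Cox7a1 and Cox7b2, the genes drawn lie to the right of 0, and over all 83 genes the split becomes 45 above and 38 below 0 after loess on signal.

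The direction of this common shift depended on how the arrays were made level. The unscaled signals were nearly equal, with a median ratio of aged to young of 1.02 and a range from 0.622 to 2.23. Over all genes, the difference was larger at higher signal, from a median near 0 in the middle of the signal range to 0.40 in the brightest 10% of genes, where 86.0% of 1875 genes were above 0. Of the respiratory chain genes, 62 lay there, with a median of 0.43, and 12 lay in the next 10%, with a median of 0.25 beside 0.22 for all genes there. The respiratory chain genes thus lay close to the median of other genes of like signal. After loess on signal, which removes this trend, their median was 0.01, with 45 above 0 (54.2%, beside 44.7% of all genes) and 38 below. After quantile normalization it was -0.05, with 33 above 0 (39.8%, beside 53.6% of all genes) and 50 below. With spike-in controls as the common level it was 0.15, with 68 above 0 (81.9%, beside 32.6% of all genes). At 1.5-fold, only Cox6a2 and Cox8b were higher after loess (4.92% of all genes), after quantile normalization (7.44%) and on the spike-in level (2.35%), and 41 genes were higher after centring on the median (19.5%). On the spike-in level 1 gene, Cox6a2, was at least 2-fold higher (0.8% of all genes). Over all scalings, filters and probe choices tried, 27 genes stayed above 0, Cox7a1 stayed below 0 and 55 changed sign.

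**Figure D2:**
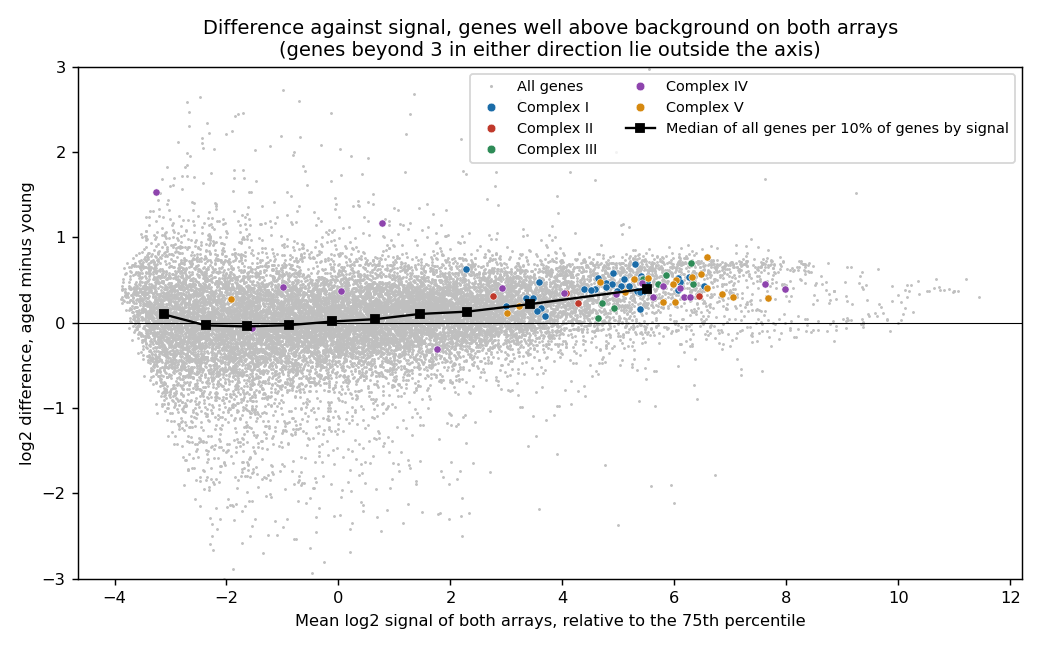
Log2 difference, aged minus young, against the mean log2 signal of both arrays relative to the 75th percentile, for all genes (grey) and the respiratory chain genes (coloured by complex), with the median of all genes in 10 bins of equal size by signal (black squares). The black line climbs to 0.40 in the brightest bin, and most respiratory chain genes lie along its right end, while Cox6a2 and Cox8b lie far above it.

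The complexes differed little in their medians, which were 0.43 for complex I, 0.31 for complex II, 0.45 for complex III, 0.39 for complex IV and 0.38 for complex V. All 5 medians changed sign over the scalings, as their lowest values were -0.02, -0.06, -0.10, -0.09 and -0.09.

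**Figure D3:**
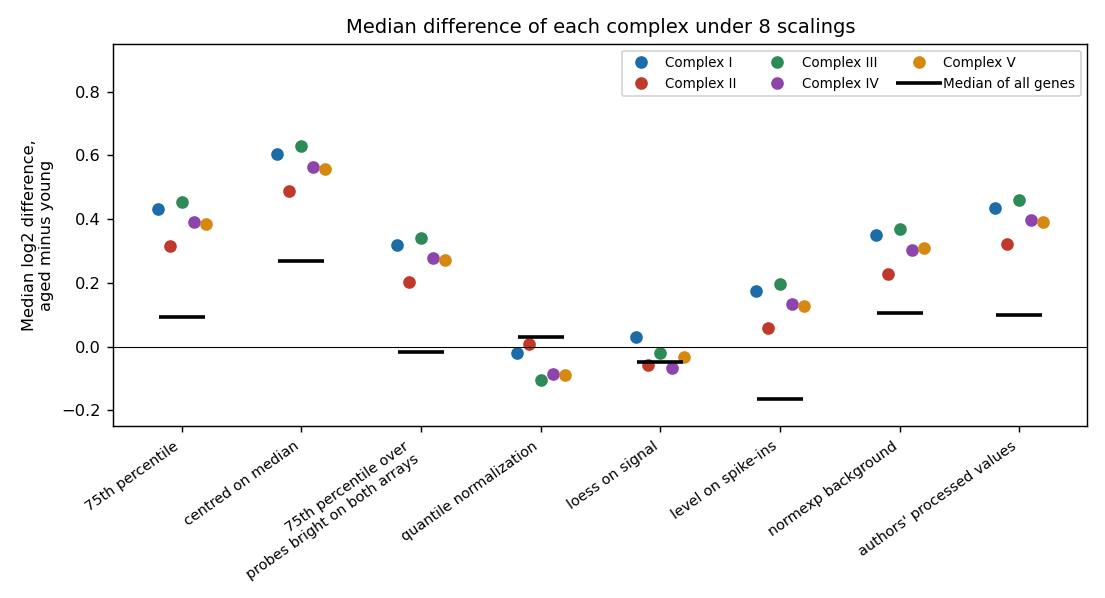
Median log2 difference, aged minus young, of each complex (coloured points) and of all genes (black bars) under 8 ways of setting the arrays level. The complexes lie above the median of all genes under the scalings that use 1 constant per array and after normexp, while after quantile normalization all 5 lie below it and after loess they lie on both sides of it.

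All 36 measured genes of complex I had differences above 0 under the 75th percentile scaling, from 0.08 to 0.69, although 22 of them changed sign under at least 1 other setting, such as loess or quantile normalization. Ndufa2, an accessory subunit of the arm that binds NADH, went from a signal of 7977 on the young to 9914 on the aged array, a difference of 0.69 ± 0.20. Ndufa11, an accessory subunit of the membrane arm, went from 1003 to 1194 (0.62 ± 0.20). Both stayed above 0 after loess, at 0.26 and 0.41. The lowest values were those of Ndufs1 and Ndufs4. Ndufs1, the largest iron-sulphur subunit, went from 3201 to 2607 (0.08 ± 0.20). Ndufs4, an accessory subunit whose loss causes Leigh-like disease in mice, went from 2865 to 2433 (0.14 ± 0.20). Both were lower on the aged array before scaling and within their error after it.

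The 7 core genes of complex I on the list, which carry the flavin or the iron-sulphur clusters or line the quinone site, had a median of 0.38, and the other subunit genes of the complex had 0.47. Other core values were 0.36 for Ndufs7, 0.38 for Ndufv1, 0.40 for Ndufv2, 0.40 for Ndufs8 and 0.45 for Ndufs3. Ndufa4 carries a complex I name but is now regarded as a subunit of complex IV, and its difference was 0.38.

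Complex II, whose 4 subunits are all encoded in the nucleus and which also works in the tricarboxylic acid cycle, varied least. Sdha, the flavoprotein, went from 4595 to 4164 (0.23 ± 0.20). Sdhb, the iron-sulphur subunit, went from 19969 to 19204 (0.32 ± 0.20). The membrane anchors Sdhc and Sdhd differed by 0.31 and 0.35. The 4 differences lay within the error of any one of them, and after loess they were -0.12, -0.19, 0.07 and 0.01.

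Complex III showed a wide split between its subunits. Uqcrq, a small subunit, went from 15718 to 19748 (0.70 ± 0.20), and Uqcr11, another small subunit, from 12212 to 13907 (0.56 ± 0.20). Uqcrc1 and Uqcrc2, the large core proteins that face the matrix, went from 7293 to 6361 (0.17 ± 0.20) and from 6261 to 5037 (0.06 ± 0.20). Uqcrfs1, the Rieske iron-sulphur protein, went from 6172 to 5584 (0.23 ± 0.20). Signals of the 3 core and cofactor genes were thus lower on the aged array before scaling, and those of the small subunits were higher. After loess, Uqcrq stood at 0.21 and Uqcrc2 at -0.32.

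In complex V, the c ring, which turns as protons pass, is encoded by 3 genes whose mature proteins are the same. Atp5g1 went from 18788 to 24667 (0.76 ± 0.20), the largest difference in the complex. Atp5g2 went from 18814 to 21614 (0.57 ± 0.20) and Atp5g3 from 26209 to 25561 (0.34 ± 0.20). Another Atp5g1 probe, within the same stretch of the chromosome as the brightest, gave 0.76, and the dimmer probe shown above, which the files assign to another transcript, gave -0.11. Whether the dimmer Atp5g1 probe also binds RNA of other genes was not tested. A second probe of Atp5g3 gave -0.25. Of the catalytic F1 part, Atp5a1 and Atp5b, the alpha and beta subunits, went from 30343 to 28865 (0.30 ± 0.20) and from 47578 to 44789 (0.28 ± 0.20). Atp5c1, the gamma subunit, had 0.24, Atp5e 0.45 and Atp5d 0.47. The lowest values of the complex by name belonged to Atp5sl at 0.12 and to the pseudogene Atp5c1-ps at 0.20. Atp5sl and Atp5s (0.28) are not subunits of the ATP synthase. Whether the probe of the pseudogene also binds Atp5c1 was not tested.

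In complexes I, III and V, genes on the nuclear core lists had lower medians than the other nuclear subunit genes of the same complex. All 4 genes of complex II are on its list, which leaves no others there to compare. The lists take in the large core proteins of complex III and the F1 part of complex V, so not every gene on them carries a catalytic or cofactor site. Over complexes I, II, III and V, the 19 genes on the core lists had a median of 0.31, and the 44 other subunit genes of these complexes had 0.48. All 19 core genes lay below the median of the others, and 16 did so after loess and 13 after quantile normalization. In complex III the medians were 0.17 and 0.51, and for the F1 part of complex V against the rest of the complex, in which the c ring was counted, they were 0.30 and 0.50. The gap between core and other genes was -0.16 under the 75th percentile scaling and after loess, -0.11 after quantile normalization and -0.17 after the normexp background correction, and leaving out the c ring gave -0.16 as well. The lists hold nuclear genes alone, and Cyc1 (0.33), which the symbol rule does not catch, is not on the list of complex III. The 7 core genes of complex I that mitochondrial DNA encodes were not lower, with a median of 0.51. The 2 sets of nuclear genes also differed in other ways. The core genes had a median mean log2 signal of 4.70 against 5.42 for the others and a median length of 10095 against 6976 bases on GRCm38.p6. The part of signal and length in the gap was not tested beyond loess.

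Across 77 genes, without the tissue isoforms, the difference went with the mean log2 signal (Pearson r 0.32, Spearman rho 0.33), with the GC content of the probe (r 0.37, rho 0.42) and inversely with the length of the gene (r -0.52, rho -0.45 over 75 genes). After loess the rho values were -0.22, 0.28 and -0.21. These are descriptions across genes that share both arrays, and genes are not independent replicates.

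Complex IV held both the largest and the lowest differences of all 83 genes, and all of them belonged to the tissue isoforms. Cox6a2, the heart and muscle form of subunit 6a, went from 15.8 to 35.2, a difference of 1.53 ± 0.38 (2.89-fold). Its young signal was close to 14.1, the lowest signal marked as well above background on that array, and after normexp its difference was under 2-fold. Cox8b, the heart and muscle form of subunit 8, went from 291 to 507, a difference of 1.17 ± 0.21 (2.25-fold), and stayed between 0.92 and 1.35 over the settings tried. Cox7a1, the heart and muscle form of subunit 7a, went the other way, from 963 to 599 (-0.31 ± 0.20). Cox7b2, a testis form, went from 90.0 to 66.3 (-0.07 ± 0.22).

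The other isoforms lay close to the rest of the chain. Cox4i2, the lung form of subunit 4, had signals of 233 on both arrays (0.37 ± 0.21), and Cox6b2, the testis form of subunit 6b, had 112 and 115 (0.42 ± 0.21). The 6 widely expressed forms lay close together, at 0.31 for Cox4i1, 0.39 for Cox6a1, 0.41 for Cox6b1, 0.43 for Cox7a2, 0.45 for Cox8a and 0.46 for Cox7b. The partners of the isoforms that stood apart, Cox6a1, Cox8a and Cox7a2, thus did not share their differences.

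**Figure D4:**
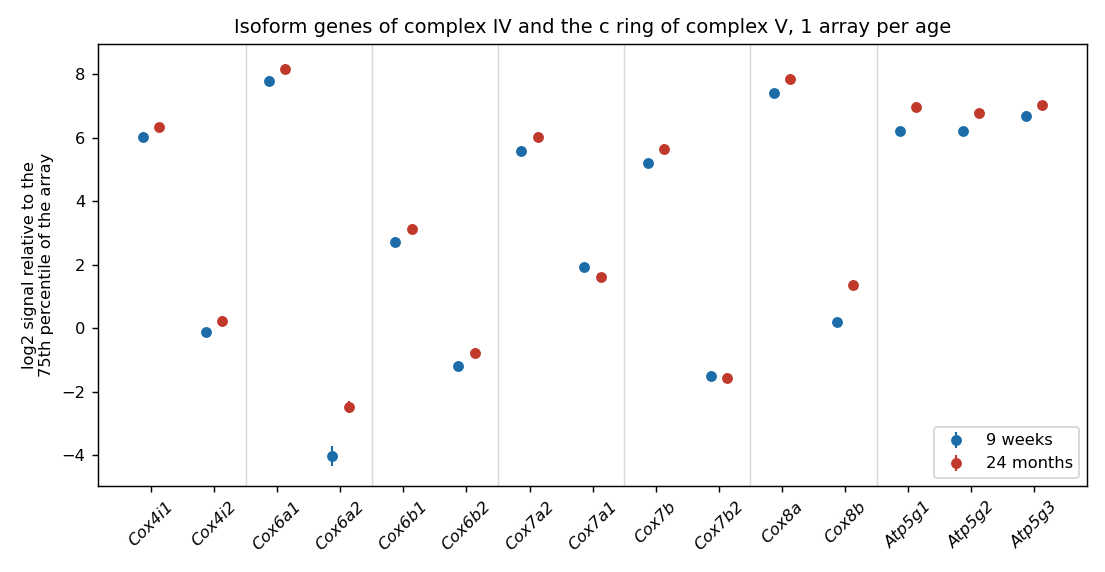
Log2 signal relative to the 75th percentile of the array for the isoform genes of complex IV, each widely expressed form beside its tissue form, and the 3 c ring genes of complex V, with 1 point per array (9 weeks and 24 months) and bars for the error of the scanner software. Cox6a2 and Cox8b are higher and Cox7a1 lower on the aged array, while the widely expressed forms differ by 0.31 to 0.46.

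Most markers of muscle and of fat, which use these isoforms, were dim or did not pass the background mark. Of 7 skeletal muscle markers, Myh4 and Mylpf did not pass it at either age, and Acta1 and Myh1 passed only on the young array. Acta1, the actin of skeletal muscle, went from 74.1 to 15.4. Ckm differed by -0.25, Tnnt3 by -0.12 and Myl1 by 0.78. The summed level of the 5 kept muscle markers, relative to the 75th percentile, was 0.858 for young and 0.685 for aged. Of 6 fat markers, Adipoq, Plin1, Cidec and Ucp1 did not pass it at either age. Fabp4, a fatty acid carrier, was well measured, with signals of 777 and 719 (0.26), as was Lep, with 415 and 309 (-0.05), with a summed level of 4.65 for young and 5.20 for aged.

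Where a gene had several kept probes, these mostly gave like values. Of 27 such genes, 25 had several probes measured on both arrays, and among these probes the median range was 0.081 and the largest 0.87, for Atp5g1. Of the 115 kept probes measured on both arrays, 108 were above 0. In 5 genes (Atp5g1, Atp5g3, Ndufa10, Ndufb8 and Ndufv3) these probes had opposite signs. Probes that passed the background mark on 1 array alone lay near the background, and this filter itself favours the direction they show. On the young array alone these were probes of Atp5j2, with signals of 30.9 and 12.2, and of Sdha, with 19.4 and 13.5. On the aged array alone it was a probe of Ndufa13, with 18.6 and 20.0. The probes of Ndufs5, Ndufb4 and Cox7c also match a second gene or pseudogene in the files.

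Other genes of the respiratory chain and ATP synthase, which the symbol rule does not catch, behaved like those it does. Cycs, which encodes cytochrome c, and Atpif1 are on this list but are not subunits of the complexes. Ndufab1, Cyc1, Cycs, Atp5md, Atp5mpl and Atpif1 had a median of 0.40 under the 75th percentile scaling and of 0.00 after loess and -0.02 after quantile normalization. The highest was Atp5mpl at 0.54, and the lowest Atpif1, the inhibitor of ATP synthase, at 0.21. The 11 transcripts of mitochondrial DNA on the array had a median of 0.49 and were all above 0, with a median of 0.00 after loess and 0.05 after quantile normalization. ATP8, a subunit of complex V, was the highest of them, from 18902 to 27199 (0.90), and stayed at 0.38 after loess. ND6, the subunit encoded on the other strand, was the lowest (0.24).

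Assembly factors, which build the complexes without remaining in them, had a median of 0.28 over 45 genes, with 42 above 0. That was somewhat lower than the 0.40 of the respiratory chain genes under the same scaling. The order was reversed after loess, at 0.15 beside 0.01 for the respiratory chain genes, and after quantile normalization, at 0.22 beside -0.05. Ndufaf5, which modifies a core subunit of complex I, went from 203 to 409 (1.38 ± 0.21, 2-fold or more), but another probe of it gave 0.44. Acad9, which also assembles complex I, went from 2338 to 1125 (-0.68 ± 0.20), and its other probes gave 0.04 and -0.19. The factors of complex IV had a median of 0.29, all 20 above 0, with Cox16 the highest at 0.66. Those of complexes II and III had 0.27 and those of complex V 0.14.

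Genes that feed the chain differed by list. The tricarboxylic acid cycle had a median of 0.23 with 13 of 13 above 0, which became -0.08 after loess and -0.05 after quantile normalization. Coenzyme Q synthesis had 0.10, from -0.39 for Coq8a, with 0.48 by a dimmer probe, to 0.55 for Coq7. Import proteins, channels and carriers of both mitochondrial membranes had 0.22, and -0.08 after loess. Glycolysis had 0.51, and 0.03 after loess. Under the 75th percentile scaling 12 of its 14 genes were above 0 (59.9% of all genes) and 5 at least 1.5-fold higher (9.82%). Pfkl, the liver form of phosphofructokinase, was the highest of them at 0.79, with 0.23 by its other probe, and its other forms Pfkm and Pfkp were at -0.32 and -0.35.

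**Figure D5:**
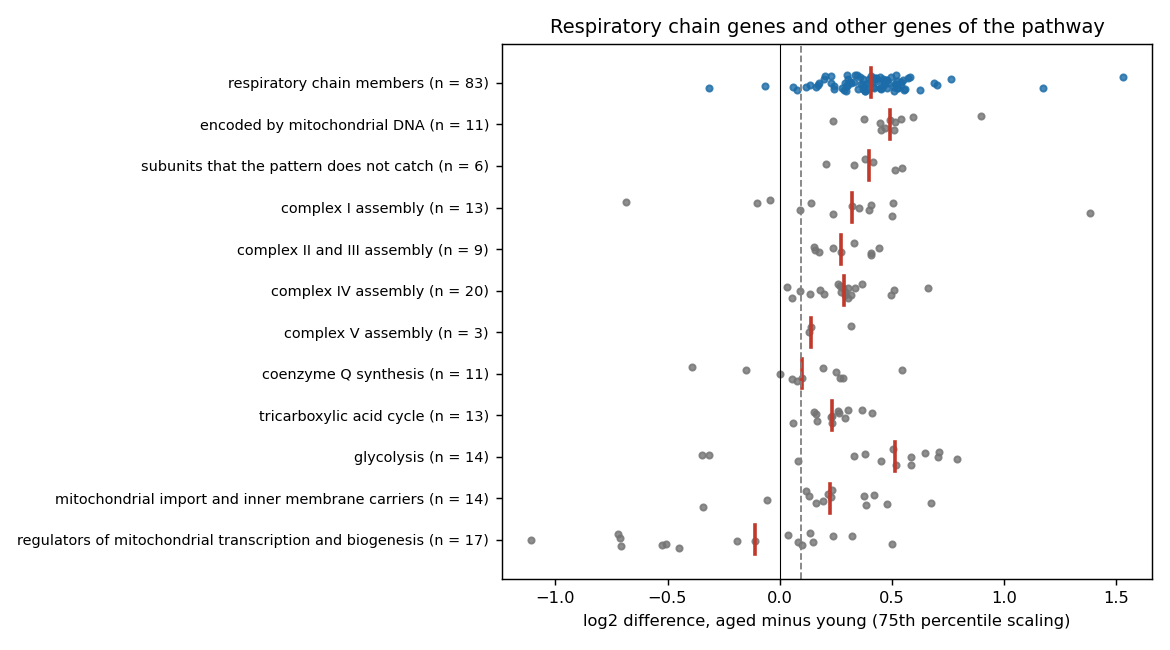
Log2 differences, aged minus young, after 75th percentile scaling for the respiratory chain genes (blue) and the genes of 11 other lists (grey), 1 point per gene measured on both arrays, spread vertically only to separate them, with list medians in red, 0 as a solid line and the median of all genes as a dashed line. The regulators reach furthest to the left, down to -1.11 for Ppargc1a, while the respiratory chain genes cluster around 0.40, a value that becomes 0.01 after loess.

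The regulators of mitochondrial transcription and biogenesis had a lower median than the respiratory chain genes. It was -0.11, with 8 of 17 above 0 (59.9% of all genes were). After loess it was -0.23, beside 0.01 for the respiratory chain genes and -0.05 for all genes. Most regulators were dimmer than the respiratory chain genes, whose shift went with high signal. Ppargc1a, the coactivator that drives mitochondrial biogenesis, went from 1764 to 633 (-1.11 ± 0.20, at least 2-fold lower), and its other probe gave -1.35. Ppargc1b, its relative, went from 209 to 97.9 (-0.72 ± 0.21). Esrrg, an orphan nuclear receptor that works with both, went from 1331 to 629 (-0.71 ± 0.20), and its other probes gave -0.86 and -0.24. Gabpa, the DNA-binding subunit of the ETS factor GABP, went from 168 to 79.5 (-0.71 ± 0.21), but its dimmer probes gave 0.15 and 0.19. These 4 were lower by 1.5-fold or more (7.42% of all genes were). The brightest probes of Nrf1, Yy1 and Gabpb1 gave -0.19, -0.51 and -0.52, but dimmer probes measured on both arrays gave 0.08 and 0.56 for Nrf1, -0.16 and 0.08 for Yy1, and 0.35 and -0.22 for Gabpb1. Tfam, which packages mitochondrial DNA, was at 0.08 and -0.07 by its probes, and Esrra at 0.15 and -0.70. The direction of Ppargc1a and Esrrg was thus shared by all their probes, and that of Gabpa, Gabpb1, Nrf1, Yy1, Tfam and Esrra was not.

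Markers of other cell types also differed between the arrays. Of the 8 epithelial markers, 7 were measured on both arrays, with a median of 0.06 (-0.40 after loess), and Epcam itself had 0.20 (-0.06 after loess). Of the duct markers, 7 of 8 granular duct genes were below 0, with a median of -0.23 and a summed level of 3340 for young and 3396 for aged, while the 8 genes of striated ducts and ionocytes had 0.31, with 14.6 and 17.9. After loess the 2 duct medians were -0.80 and 0.16. The acinar list was split, from -1.79 for Smgc to 0.98 for Lpo, with a median of 0.37 and a summed level of 7293 and 9578. Its median was -0.45 after loess, with 1 of 10 above 0, but -0.04 after quantile normalization. The basal and myoepithelial list had a median of -0.02 (-0.27 after loess) and a lowest value of -2.14, for Cnn1. Its summed level was 68.0 and 75.8, of which the brightest gene, Trp63 (0.29), made up the largest part. Summed levels follow the brightest genes of a list. All 9 macrophage and dendritic cell markers were lower on the aged array (40.1% of all genes), 6 of them at least 2-fold (3.05%). Their median was -1.06, with a summed level of 196 for young and 104 for aged. Lyz2, a lysozyme, went from 23810 to 4884. The fibroblast markers had a median of -1.44 over 5 genes, with a summed level of the 6 kept genes of 18.6 and 8.70, and no marker of either list was under the background on the young array. Of the 6 endothelial markers, 5 were below 0, with a median of -0.56 and a summed level of 6.12 and 4.24. After loess the medians of the macrophage and dendritic cell, fibroblast and endothelial lists were -1.25, -1.55 and -0.61. The study gives only a lower bound for the purity of the sorted epithelial cells, so other cells may be among them. In such bulk RNA, fewer cells of a type and less RNA per cell cannot be told apart. The part of these cells in the differences of the respiratory chain genes and their regulators was not tested.

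Promoters were compared because NRF1, GABP and YY1 are known to bind those of many respiratory chain genes. RefSeq promoters (GRCm38.p6, 250 bases before to 50 after the start of the gene) were matched for 69 of the 85 genes and searched on both strands. The NRF1 consensus with 1 open base was in 17 of the 69 (24.6%), beside 5.19% of 27025 genes with a promoter, and the NRF1 palindrome, which that consensus includes, in 5 (7.25%, beside 1.07%). The ETS letters CCGGAAG were in 16 (23.2%, beside 9.93%) and the YY1 letters AAGATGGC in 11 (15.9%, beside 3.19%). GGGCGG, bound by SP1, was in 28 (40.6%, beside 38.2%) and TATAAA in 7 (10.1%, beside 15.7%). Genes with and without a match had like differences, with medians of 0.39 and 0.42 for NRF1, 0.45 and 0.40 for ETS, and 0.36 and 0.42 for YY1.

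Shown here are 2 promoters that hold the NRF1 consensus (10 bases in capitals) and the ETS letters (7 bases in capitals), Cox6a1 and Atp5k, and that of the tissue isoform Cox8b, which holds neither and has TATAAA in capitals. They are from RefSeq, 5′ to 3′ along the gene, on GRCm38.p6, which is not the build of the probes above. Both ETS matches lie on the opposite strand, so their capitals read CTTCCGG.
Cox6a1, chr5:115348909-115349208, minus strand: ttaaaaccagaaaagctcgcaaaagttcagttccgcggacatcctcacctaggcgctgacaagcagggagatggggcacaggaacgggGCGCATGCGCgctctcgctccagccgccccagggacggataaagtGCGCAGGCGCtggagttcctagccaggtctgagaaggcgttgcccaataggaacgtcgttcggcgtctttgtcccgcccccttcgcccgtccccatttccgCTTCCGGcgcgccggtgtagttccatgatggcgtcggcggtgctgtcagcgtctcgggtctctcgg
Atp5k, chr5:108434350-108434649, minus strand: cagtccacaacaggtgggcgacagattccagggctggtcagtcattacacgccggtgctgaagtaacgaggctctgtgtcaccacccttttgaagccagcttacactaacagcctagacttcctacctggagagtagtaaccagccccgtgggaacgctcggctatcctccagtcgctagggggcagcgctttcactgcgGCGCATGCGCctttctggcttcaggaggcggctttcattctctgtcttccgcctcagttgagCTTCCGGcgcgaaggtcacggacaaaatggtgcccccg
Cox8b, chr7:140900397-140900696, minus strand: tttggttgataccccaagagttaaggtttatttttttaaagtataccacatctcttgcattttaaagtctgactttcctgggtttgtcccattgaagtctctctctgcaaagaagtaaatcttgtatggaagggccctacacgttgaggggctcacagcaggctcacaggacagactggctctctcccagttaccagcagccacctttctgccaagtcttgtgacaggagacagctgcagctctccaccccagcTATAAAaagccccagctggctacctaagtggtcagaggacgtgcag
The differences of these genes were 0.39, 0.51 and 1.17. A match of letters is a description of the window and does not show that a factor binds there.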

How the data were processed

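Intensities of 1-colour Agilent arrays were deposited as scanner files, which the authors made with Feature Extraction 12.0.3.1. Per the file headers, background and spatial trends had been removed and no scaling between arrays was done. The authors' processed table holds these intensities divided by 1 constant per array (229 and 176) and has no log. Here log2 signals were taken relative to the 75th percentile over 59305 non-control spots. Spots marked as outliers (90 young, 93 aged, none among the genes described) were left out, and repeated spots were averaged. The share of spots well above background was 55.4% for young and 50.8% for aged, with 0 saturated. The number of arrays limits the precision.

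No test was made, and 1 gene is counted but not reported by name. Named genes were the 2 highest and 2 lowest of each complex, those past 1.5-fold and the lists of subunit roles. The highest and lowest of each pathway list were also named. Other regulators, glycolytic and assembly genes were named after their values were seen. Members and lists were chosen with earlier results of these data known. Symbols of members are those of the files, and other genes were named by RefSeq accession (33767 of 56605 probes). R 4.3.3 with limma 3.58.1 gave quantile, loess (span 0.7, 3 iterations) and normexp (offset 50) values. Python 3.11.15 did the rest (numpy 2.4.6, pandas 2.3.3), and the steps were tested on simulated data. Other settings were scalings, filters, probe choices and left-out isoforms.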

Additional observations from a re-analysis of the deposited data

How the results depend on the processing

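Under the 75th percentile scaling the median difference was 0.40. It was 0.58 after centring on the median, 0.29 with the percentile over probes bright on both arrays, -0.048 after quantile normalization, 0.0081 after loess, 0.15 on the spike-in level and 0.32 after normexp. Relative to the median of all genes it was 0.31 for each scaling by 1 constant, but -0.079 after quantile normalization, 0.056 after loess, 0.22 after normexp, 0.17 with every probe kept and 0.27 by the dimmest kept probe. At least 1.5-fold higher were 41 genes after centring on the median (19.5% of all genes), and 2 after quantile normalization, after loess and on the spike-in level. At least 2-fold higher was 1 gene on the spike-in level, and 0 after normexp or without the tissue isoforms. Below 0 was 1 gene after centring on the median, beside 4593 of the 18744 genes measured on both arrays. With the percentile over probes bright on both arrays there were 4 (9724 of all genes). After quantile normalization there were 50 (8678 of all genes), after loess 38 (10358) and on the spike-in level 15 (12632). By the dimmest kept probe there were 7, and without the tissue isoforms 0. The cause of these shifts was not tested, apart from the scalings by 1 constant, which move all genes alike. The other 73 of these counts and medians kept within the limits set. No paired analysis was possible because each age has 1 array, and no replicate could be left out. Signal over background limits the value of Cox6a2, and the choice between scalings limits every direction given for the complexes.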

Other observations

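Other large sets of abundant genes were also higher on the aged array under the 75th percentile scaling. The cytosolic ribosomal protein genes had a median difference of 0.65, and 0.09 after loess. Under the 75th percentile scaling 82 of 84 were above 0 (59.9% of all genes) and 61 at least 1.5-fold higher (9.82%). The mitochondrial ribosomal protein genes, which translate the subunits encoded in mitochondrial DNA, had 0.33 with 73 of 77 above 0, and 0.10 after loess. Mrpl50 was the lowest of them at -1.11 and Mrpl23 the highest at 0.73. The proteasome subunits had 0.35 with 34 of 38 above 0, and 0.05 after loess, with Psmb9, a subunit of the immunoproteasome, the lowest at -0.52. The respiratory chain genes, at 0.40 and 0.01, lay between these sets before loess and below all of them after it.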
